A study of Mus musculus with 29 samples.

Results

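The secreted Wnt antagonists were examined in the developing mouse pallium at E17.5, in embryos with and without the BAF chromatin remodeling subunits BAF155 (gene Smarcc1) and BAF170 (gene Smarcc2). The 8 genes are Sfrp1, Sfrp2, Sfrp5 and Frzb of the secreted Frizzled-related protein family, Dkk1, Dkk2 and Dkk3 of the Dickkopf family, and Wif1. They were chosen by name, with earlier results of these data known, and the choice named opposite genotype changes of Sfrp5 and Dkk1 as well as H3K27me3 peaks at these genes. Genotype differences of the 8 genes are therefore given as a description, without a test. All 8 genes were among the 38355 genes of the count tables of the untreated pallia and the 48709 genes of those of the treated cortices, and all 8 passed the filter on low counts in both experiments.

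Wnt ligands bind Frizzled receptors and the co-receptors LRP5 and LRP6, which stabilizes β-catenin and turns on target genes through TCF/LEF factors. SFRP proteins, including FRZB, carry a Frizzled-like domain and bind Wnt ligands outside the cell, as does WIF1. DKK1 and DKK2 bind LRP5 and LRP6 instead, whereas DKK3 is a divergent family member that is not regarded as a classical LRP antagonist. In the embryonic forebrain, Wnt signals from the medial edge of the pallium pattern the hippocampus and cortex, and antagonists made by progenitors on the lateral side oppose them.

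All embryos were of the C57BL/6J strain. The untreated RNA-seq comprised 4 control pallia and 3 pallia of double conditional knockout (dcKO) embryos, in which floxed Smarcc1 and Smarcc2 are removed by Cre under the human GFAP promoter (hGFAP-Cre). The treated RNA-seq comprised 4 wild type (WT) cortices with vehicle, 4 dcKO cortices with vehicle and 4 dcKO cortices with a Wnt inhibitor. In the study the inhibitor was ICG-001, a small molecule that blocks the interaction of β-catenin with CBP, and it was injected daily into pregnant dams. There was no WT group with inhibitor. H3K27me3, the histone mark set by Polycomb repressive complex 2, was measured by ChIP-seq in 4 control and 4 dcKO pallia. The genotype label of the untreated and ChIP-seq samples reads dcKO for the controls too, so their genotype was taken from the letters of the sample titles as the study uses them. This Cre is active in the medial pallium first and reaches dorsal and lateral pallium later, so cells born before that are not targeted. No label says that replicates came from different embryos, so p-values measure the spread between these samples.

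The total count was between 11946658 and 28391046 in the untreated libraries and between 12514443 and 26600594 in the treated libraries. Levels are in CPM, the count of a gene relative to the library total scaled by TMM. Smarcc1, the targeted gene, went against the label of 4 libraries. It lay between 245 and 299 CPM in the 8 control and WT libraries, and between 128 and 138 CPM in untreated dcKO replicates 3 and 4 and dcKO vehicle replicates 1, 3 and 4. The library labelled dcKO untreated replicate 2 held 245 CPM, and the library labelled dcKO vehicle replicate 2 held 242 CPM. The libraries labelled inhibitor replicates 1 and 2 held 214 and 252 CPM, against 140 and 173 CPM in replicates 3 and 4. Prm1, from a list of 4 spermatid genes, was at 26.2 to 30.8 CPM in the 5 low-Smarcc1 libraries of the first 2 dcKO groups. It was at 2.49 and 2.60 CPM in their replicates 2. It was at 2.87, 2.87, 12.1 and 8.21 CPM in inhibitor replicates 1 to 4 and at most 0.331 CPM in control and WT libraries. By Prm1 the 4 libraries thus lay below the other dcKO libraries but above every control and WT library. Prm2, on the same list, was at 0 CPM in every library. The 4 libraries held Smarcc1 at 80% or more of the lowest control of their experiment, and values without them are also given below, a choice made after the data were seen. Smarcc2 was at 398 to 439 CPM in the 5 low-Smarcc1 libraries of the untreated and vehicle dcKO groups, at 670 and 692 CPM in their replicates 2, and at 654 to 834 CPM in control and WT libraries. With inhibitor it was at 644, 695, 416 and 586 CPM in replicates 1 to 4, so that by Smarcc2 replicate 4 lay nearer to the control libraries, whereas by Smarcc1 it lay nearer to the low ones. In addition, the 2 experiments were not independent. Over 15220 genes, the deviation of each of the 7 untreated libraries from its group mean correlated best with the vehicle library of the same number and genotype, with r from 0.20 to 0.80.

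Upstream sequences are shown for 3 genes, Sfrp5, whose level was higher in all inhibitor than in all dcKO vehicle libraries, and Dkk1 and Dkk2, whose H3K27me3 regions held a peak in all 8 libraries. RefSeq's promoter table on GRCm38.p6, the same build as mm10, held 6 of the 8 genes, all but Sfrp1 and Dkk3. Each sequence is the stretch upstream of the gene start, 5′ to 3′ on the strand of the gene, with CpG dinucleotides in capitals. Sfrp5 lies at chr19:42202253-42202502 (minus strand), Dkk1 at chr19:30549666-30549746 (minus strand) and Dkk2 at chr3:132085042-132085291 (plus strand).
Sfrp5: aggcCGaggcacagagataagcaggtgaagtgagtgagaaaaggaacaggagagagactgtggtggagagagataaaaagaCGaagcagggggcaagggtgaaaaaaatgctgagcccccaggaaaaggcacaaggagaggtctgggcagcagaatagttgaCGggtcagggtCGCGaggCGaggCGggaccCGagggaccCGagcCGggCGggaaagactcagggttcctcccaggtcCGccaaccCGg
Dkk1: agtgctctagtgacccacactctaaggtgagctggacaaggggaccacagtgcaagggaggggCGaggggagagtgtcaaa
Dkk2: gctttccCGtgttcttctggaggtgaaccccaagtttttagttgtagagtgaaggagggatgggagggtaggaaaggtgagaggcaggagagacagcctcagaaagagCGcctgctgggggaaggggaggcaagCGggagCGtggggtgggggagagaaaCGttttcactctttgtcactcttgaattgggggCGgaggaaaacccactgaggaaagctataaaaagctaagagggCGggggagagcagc
In the full promoter windows of 300 bases, the number of CpG was 15 at Sfrp5, 9 at Dkk1 and 11 at Dkk2, beside a median of 7 over 32851 promoters. It was 20 at Frzb, 22 at Sfrp2 and 25 at Wif1, and 18.4% of promoters held as many as Wif1. The letters CTTTGAT or CTTTGTT, on either strand, which TCF/LEF factors can bind, occurred in 1 of the 6 windows, that of Dkk1, downstream of the stretch shown. Such letters were found in 9.33% of all promoters.

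Levels per kilobase of exon put the 8 genes in a clear order in WT vehicle cortex. Sfrp1 was highest at 29.3 CPM per kb (24.7 to 34.7 over the 4 libraries), followed by Dkk3 at 16.6 (13.7 to 19.4) and Sfrp2 at 7.06 (6.46 to 7.57). None of these ranges overlapped. Frzb at 0.692, Sfrp5 at 0.658 and Dkk2 at 0.581 CPM per kb came next, with overlapping ranges. Wif1 at 0.225 and Dkk1 at 0.0613 CPM per kb were lowest, without overlap between Dkk1 and Wif1. In dcKO vehicle cortex the ranges of Dkk3 and Sfrp2 overlapped, Dkk2 came next at 1.05 CPM per kb, and Sfrp5 was last at 0.247 CPM per kb, within the range of Dkk1.

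**Figure D1:**
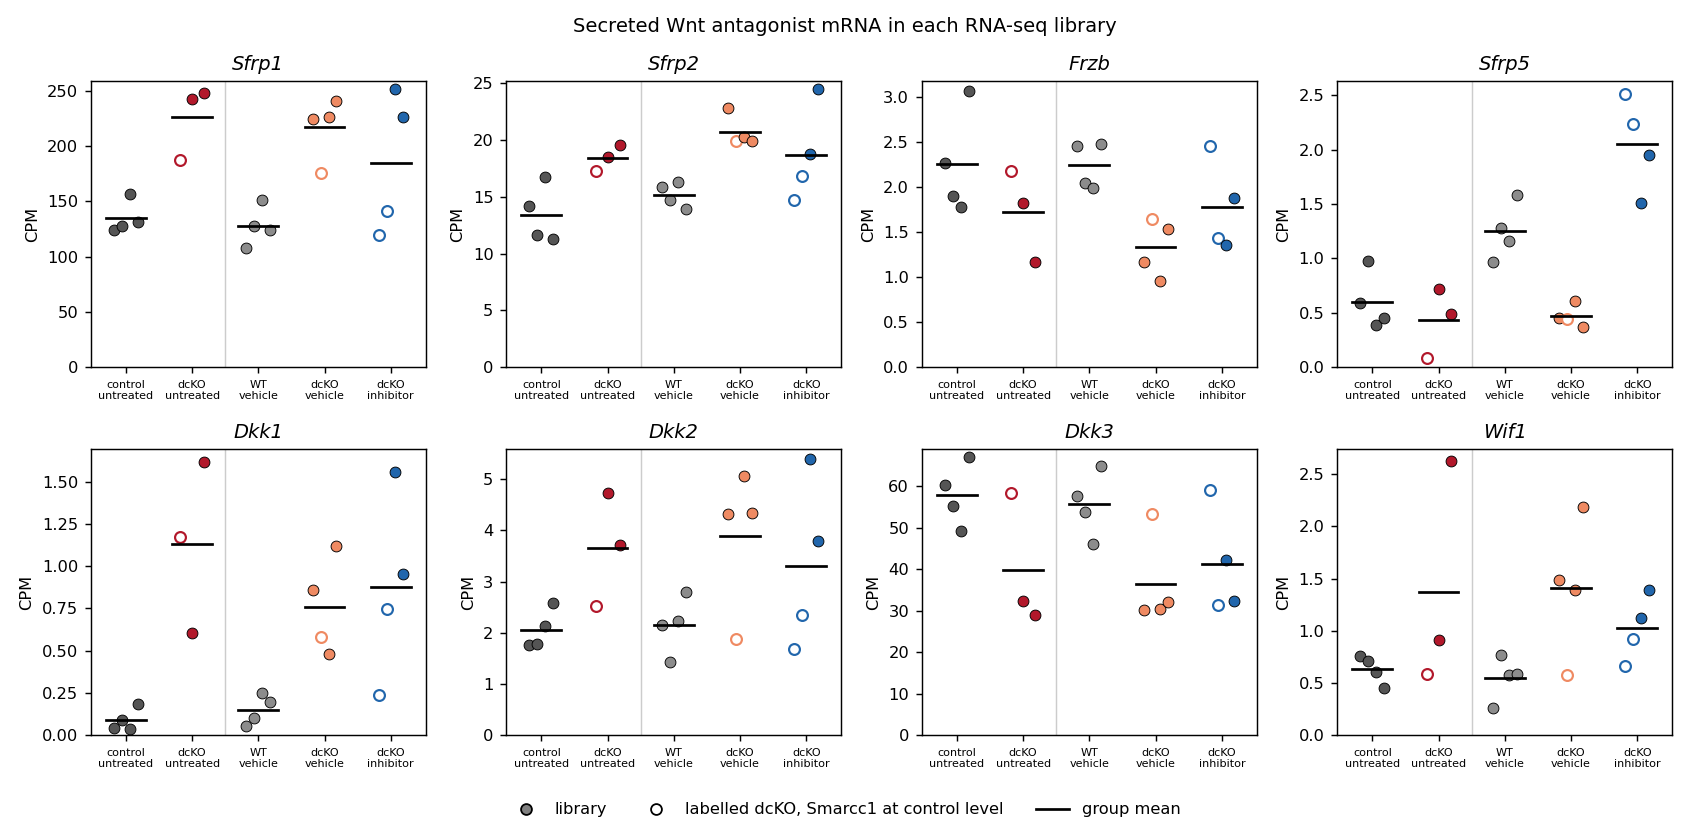
CPM of the 8 genes in each of the 19 RNA-seq libraries, 1 panel per gene and 1 column per group. Points are libraries, open points are libraries labelled dcKO with Smarcc1 at the control level, and bars are group means. Sfrp5 is the gene for which all 4 inhibitor libraries lie above all 4 dcKO vehicle libraries.

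Dkk1, which inhibits LRP co-receptors, was barely detected in control pallium and had more counts in dcKO pallium. It had 1, 2, 1 and 4 counts in the 4 untreated controls and 14, 16 and 40 counts in the 3 libraries labelled dcKO. In the treated experiment it had 1, 2, 3 and 5 counts in WT vehicle, and 19, 13, 11 and 24 counts in dcKO vehicle replicates 1 to 4. The dcKO libraries were above all control libraries in both experiments, including both replicates 2 with Smarcc1 at the control level. Pooled over libraries, the dcKO level was 13.4 times that of the untreated controls and 5.27 times that of WT vehicle. These ratios are a description, since the choice of the genes named this change. The fitted log2 fold changes were 3.67 ± 0.55 (SE) and 2.35 ± 0.59. In bulk tissue, fewer cells of a type and less RNA per cell cannot be told apart for any of these genes.

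Sfrp5, a Wnt-binding SFRP, was lower in dcKO vehicle than in WT vehicle cortex without overlap, whereas the untreated groups, also with a lower mean in dcKO, overlapped. WT vehicle cortices held 0.972, 1.28, 1.16 and 1.59 CPM and dcKO vehicle cortices 0.451, 0.445, 0.610 and 0.373 CPM, so that the groups did not overlap. The log2 fold change was −1.41 ± 0.26 (SE, n = 4 and 4). The untreated controls held 0.588, 0.975, 0.391 and 0.452 CPM and the libraries labelled dcKO 0.0839, 0.720 and 0.485 CPM in replicates 2, 3 and 4. These groups overlapped, with a log2 fold change of −0.29 ± 0.50, or 0.02 ± 0.42 without the library labelled dcKO replicate 2. Although the libraries of the 2 experiments matched by number, Sfrp5 was 1.31 to 3.52 times as high in WT vehicle as in the control of the same number, in 4 of 4 pairs, and 5.31, 0.848 and 0.770 times as high in dcKO vehicle replicates 2, 3 and 4 as in untreated dcKO. Sfrp1 was between 0.871 and 0.999 times as high in the vehicle library over all 7 pairs, and Dkk3 between 0.914 and 1.10 times, both abundant genes. The low-count genes Dkk1 and Wif1 also varied widely over these pairs, between 0.493 and 6.97 times and between 0.338 and 1.53 times. The counts behind Sfrp5 were low, with 10 to 22 per untreated control and 14 to 41 per WT vehicle library. They were 1, 19 and 12 in untreated dcKO replicates 2, 3 and 4, and 8 to 14 per dcKO vehicle library. The ratio of 5.31 thus rests on 1 count in the untreated library.

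Among the abundant SFRP genes, both Wnt-binding members were higher in dcKO. Sfrp1 was at 124, 128, 157 and 131 CPM in the untreated controls and at 188, 243 and 249 CPM in the libraries labelled dcKO replicates 2 to 4. In WT vehicle it was at 108, 128, 152 and 124 CPM, and in dcKO vehicle at 225, 176, 226 and 241 CPM. The groups did not overlap in either experiment, and replicate 2, with Smarcc1 at the control level, was the lowest of the dcKO libraries in both. The log2 fold changes were 0.75 ± 0.11 and 0.76 ± 0.21. Sfrp2 showed a smaller difference, with 13.4 ± 2.56 CPM (SD, n = 4) in untreated controls against 18.5 ± 1.15 CPM (n = 3) in dcKO, and 15.2 ± 1.10 against 20.7 ± 1.40 CPM (n = 4 each) in the vehicle groups. Its groups did not overlap either. The 3′ end of Sfrp2 overlaps the antisense gene Gm26771, and the library kit does not keep the strand, so reads of that stretch cannot be assigned to either gene.

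Frzb, Dkk2, Dkk3 and Wif1 differed between genotypes with overlapping groups in at least 1 experiment. Frzb, also a Wnt-binding SFRP, was at 1.98 to 2.48 CPM in WT vehicle and 0.959 to 1.65 CPM in dcKO vehicle, without overlap, whereas the untreated ranges of 1.78 to 3.07 and 1.17 to 2.18 CPM overlapped. Dkk3 followed Smarcc1 rather than the label in these groups. It was at 32.3 and 29.1 CPM in untreated dcKO replicates 3 and 4 and at 30.1, 30.4 and 32.1 CPM in dcKO vehicle replicates 1, 3 and 4. The libraries labelled dcKO replicate 2 held 58.3 CPM (untreated) and 53.3 CPM (vehicle), inside the ranges of 49.2 to 67.1 CPM in untreated controls and 46.0 to 65.0 CPM in WT vehicle. Dkk2 showed the same split in the other direction. In dcKO vehicle it was at 4.33, 5.05 and 4.34 CPM in replicates 1, 3 and 4 but at 1.87 CPM in replicate 2, against 1.43 to 2.79 CPM in WT vehicle. Wif1 was at 1.49, 1.39 and 2.19 CPM in the same 3 libraries and at 0.579 CPM in replicate 2, against 0.256 to 0.768 CPM in WT vehicle. In untreated dcKO it was at 0.588, 0.909 and 2.63 CPM in replicates 2 to 4, and its log2 fold change of 1.19 ± 0.46 became 0.31 without replicate 4.

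**Figure D2:**
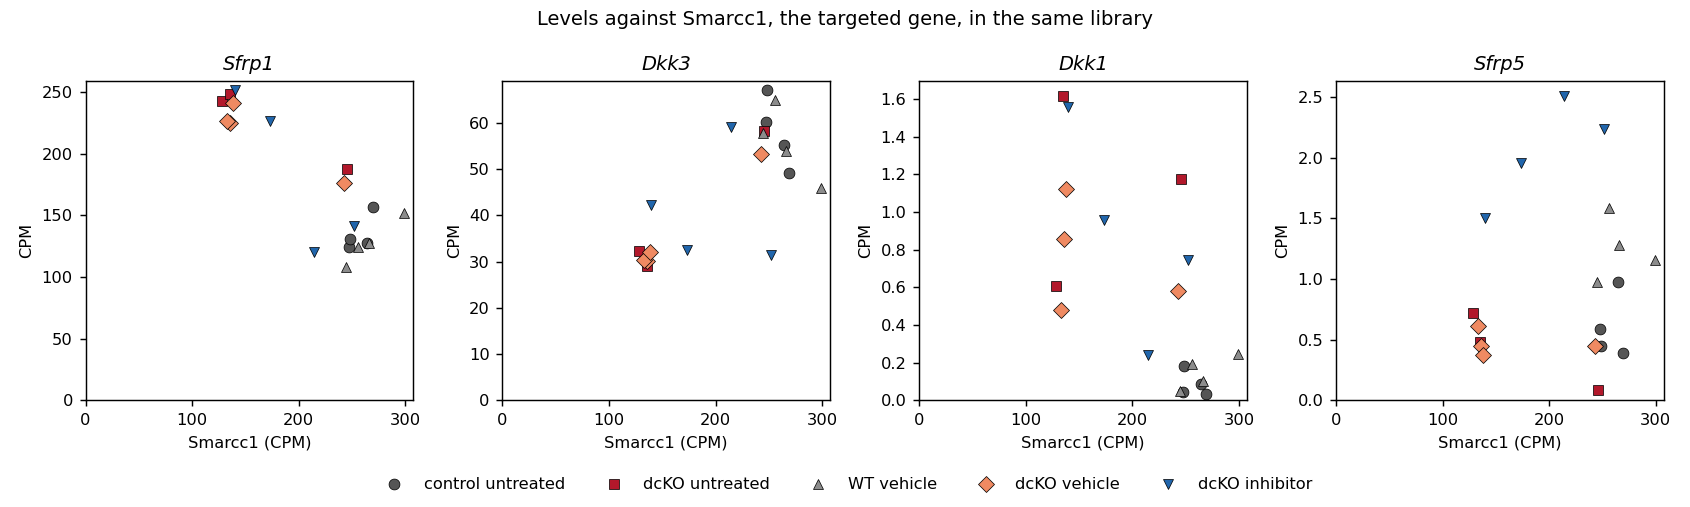
CPM of Sfrp1, Dkk3, Dkk1 and Sfrp5 (y axis) against CPM of Smarcc1 (x axis) in the same library, with 1 point per library and 1 symbol per group. Sfrp1 is at 225 to 252 CPM and Dkk3 at 29.1 to 42.3 CPM in the libraries with Smarcc1 between 128 and 140 CPM, whereas Sfrp5 in the inhibitor libraries lies at 1.51 to 2.51 CPM at every level of Smarcc1.

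Over the 8 genes, 5 had a higher and 3 a lower fitted level in dcKO in both experiments, with a median log2 fold change of 0.60 (untreated) and 0.61 (vehicle), beside 0.004 and −0.0031 over all genes tested. The groups did not overlap in the higher direction for Sfrp1, Sfrp2 and Dkk1 in both experiments, and in the lower direction for Sfrp5 and Frzb in the vehicle comparison. Of all genes tested, 6.96% (untreated) and 3.08% (vehicle) were higher without overlap, and 6.21% and 2.58% were lower. Since the choice of the genes used this contrast, nothing is read from these counts. Markers of other cells moved with the same libraries. The 10 ganglionic eminence and striatum markers summed to 653, 716 and 664 CPM in dcKO vehicle replicates 1, 3 and 4, against 463 to 580 CPM in WT vehicle and 360 CPM in replicate 2. The 8 pallial neuron markers summed to 3921, 4051 and 4422 CPM in these 3 libraries, against 4911 to 5207 CPM in WT vehicle and 5264 CPM in replicate 2. In the untreated experiment, dcKO replicates 3 and 4 held 684 and 619 CPM of the former and 3928 and 4107 CPM of the latter, against 441 to 564 and 4418 to 5274 CPM in controls and 345 and 5089 CPM in replicate 2. The part of these lists in the genotype differences was not tested. Without the libraries at the control level of Smarcc1, the log2 fold changes in the untreated and vehicle comparisons were 0.86 and 0.85 for Sfrp1, 0.50 and 0.47 for Sfrp2, 1.03 and 1.08 for Dkk2, 1.47 and 1.62 for Wif1 and 3.65 and 2.46 for Dkk1. They were −0.92 and −0.85 for Dkk3 and −0.58 and −0.89 for Frzb. For Sfrp5 they were 0.02 and −1.39, and the difference between the experiments was not tested.

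The question of the Wnt inhibitor comparison was whether blocking Wnt signaling changed expression in dcKO cortex. Of the 8 antagonists, 1 passed the test in dcKO cortex with inhibitor against dcKO cortex with vehicle, beside 9 of all 16372 genes tested, or 0.0550%, and DESeq2 also called 1 (1.66% of all genes). This was Sfrp5. The dcKO vehicle libraries are those in which Sfrp5 was chosen for its low level, so its p-value rests in part on values that the choice used and is no independent test. Sfrp5 was at 2.51, 2.24, 1.51 and 1.95 CPM in inhibitor replicates 1 to 4, above all dcKO vehicle libraries (0.373 to 0.610 CPM). The log2 fold change was 2.10 ± 0.25 (SE), with an edgeR quasi-likelihood adjusted p = 0.0194. Pooled counts were 161 against 42, a ratio of 4.28 (95% exact interval of the counts 3.03 to 6.16). This interval covers counting error only. The level was higher in 4 of 4 inhibitor libraries, while 4.48% of all genes were higher without overlap.

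Sfrp5 in the inhibitor libraries was compared also with WT vehicle. The inhibitor libraries held 2.05 ± 0.43 CPM and WT vehicle 1.25 ± 0.26 CPM (SD, n = 4 each), with a log2 fold change of 0.69 ± 0.23 (SE), given as a description because the WT vehicle values were also used in the choice. The ranges overlapped, since inhibitor replicate 3 at 1.51 CPM lay below WT vehicle replicate 4 at 1.59 CPM. WT vehicle replicate 4 stood apart in choroid plexus markers, of which 10 summed to 154 CPM there and to 20.4 to 36.8 CPM in the other WT libraries, with Ttr at 114 against 3.14 to 11.4 CPM, and the part of this tissue in its Sfrp5 level was not tested. Without the libraries at the control level of Smarcc1, the log2 fold change against dcKO vehicle was 1.85 ± 0.31 (edgeR adjusted p = 0.0331), beside 1.02% of all genes called. The call was lost without dcKO vehicle replicate 1 (edgeR adjusted p = 0.162), 3 (0.0524) or 4 (0.147) or without inhibitor replicate 4 (0.0641), whereas the log2 fold change stayed between 1.995 and 2.25. These fits too rest on dcKO vehicle values that the choice used and are no independent test.

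Markers of other cell types moved with the inhibitor group. The summed level of 10 choroid plexus markers was 883, 182, 513 and 25.4 CPM in inhibitor replicates 1 to 4 against 18 to 28.2 CPM in dcKO vehicle, with all 10 above 0 in each of these libraries. Ttr, the defining gene of this tissue, was at 803, 147, 448 and 4.03 CPM, against 3.87 to 5.80 CPM in dcKO vehicle. It made up most of the sum in inhibitor replicates 1 to 3, so the sums there mainly show Ttr. Folr1, also on the list, was at 8.73, 2.18, 6.12 and 0.279 CPM in replicates 1 to 4, against 0.134 to 0.373 CPM in dcKO vehicle. Kl was at 1.14, 0.804, 0.389 and 0.399 CPM, against 0.223 to 0.697 CPM, and so was above the vehicle range only in replicates 1 and 2. In replicate 4, with Ttr and the summed markers at the vehicle level, Sfrp5 was at 1.95 CPM. This is a single library, and the part of choroid plexus in the Sfrp5 result was not tested. The summed level of 10 markers of the ganglionic eminence and striatum was 652 to 913 CPM with inhibitor and 360 to 716 CPM with vehicle. That of 8 markers of the cortical hem and Cajal-Retzius cells was 397 to 607 against 488 to 741 CPM. All markers of both lists were above 0 in every library of these groups, and the part of these lists in the Sfrp5 result was not tested. Radial glia markers summed to 1440 to 1771 CPM with inhibitor and 1344 to 1475 CPM with vehicle, and those of pallial neurons to 4292 to 4947 and 3921 to 5264 CPM.

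The other 7 antagonists did not pass the test against dcKO vehicle (edgeR adjusted p from 0.418 to 0.827). The estimates were −0.23 ± 0.21 for Sfrp1, −0.14 ± 0.14 for Sfrp2, 0.42 ± 0.24 for Frzb, 0.24 ± 0.44 for Dkk1, −0.23 ± 0.36 for Dkk2, 0.18 ± 0.22 for Dkk3 and −0.44 ± 0.38 for Wif1 (log2 ± SE). Their inhibitor libraries were widely spread. Sfrp1 was at 120 and 141 CPM in replicates 1 and 2, within the WT vehicle range, and at 252 and 226 CPM in replicates 3 and 4, near dcKO vehicle. Dkk2 was at 1.67 and 2.35 CPM in the former and at 5.39 and 3.79 CPM in the latter. Replicates 1 and 2 are those labelled dcKO at the control level of Smarcc1. Dkk1 had 4, 13, 32 and 24 counts in replicates 1 to 4, and Dkk3 was at 59.1, 31.3, 42.3 and 32.4 CPM. Without the libraries at the control level of Smarcc1, the estimates of Sfrp1, Sfrp2 and Dkk2 were 0.05 ± 0.13, 0.05 ± 0.15 and 0.00 ± 0.25.

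Inhibitor-treated dcKO cortex compared with WT vehicle differs by genotype and inhibitor together, and it reuses the WT vehicle libraries of the genotype contrast named in the choice of the genes, so its calls are not independent of that choice. None of the 8 antagonists was called by edgeR (0.0977% of all genes were), although 4 had an unadjusted p under 0.05 (19.8% of all genes) and DESeq2 called 1, Dkk1 (4.50% of all genes). For Dkk1, whose low WT vehicle counts were used in the choice, the log2 fold change of 2.59 ± 0.58 is a description. The ranges overlapped through inhibitor replicate 1 at 0.239 CPM and WT vehicle replicate 3 at 0.248 CPM. Without the libraries at the control level of Smarcc1, a choice made after the data were seen that leaves 2 inhibitor libraries (replicates 3 and 4), 5 antagonists were called, beside 7.38% of all genes. The log2 fold changes were 0.90 ± 0.12 for Sfrp1, 0.52 ± 0.14 for Sfrp2, 3.07 ± 0.50 for Dkk1, 1.08 ± 0.25 for Dkk2 and −0.58 ± 0.15 for Dkk3 (SE).

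**Figure D3:**
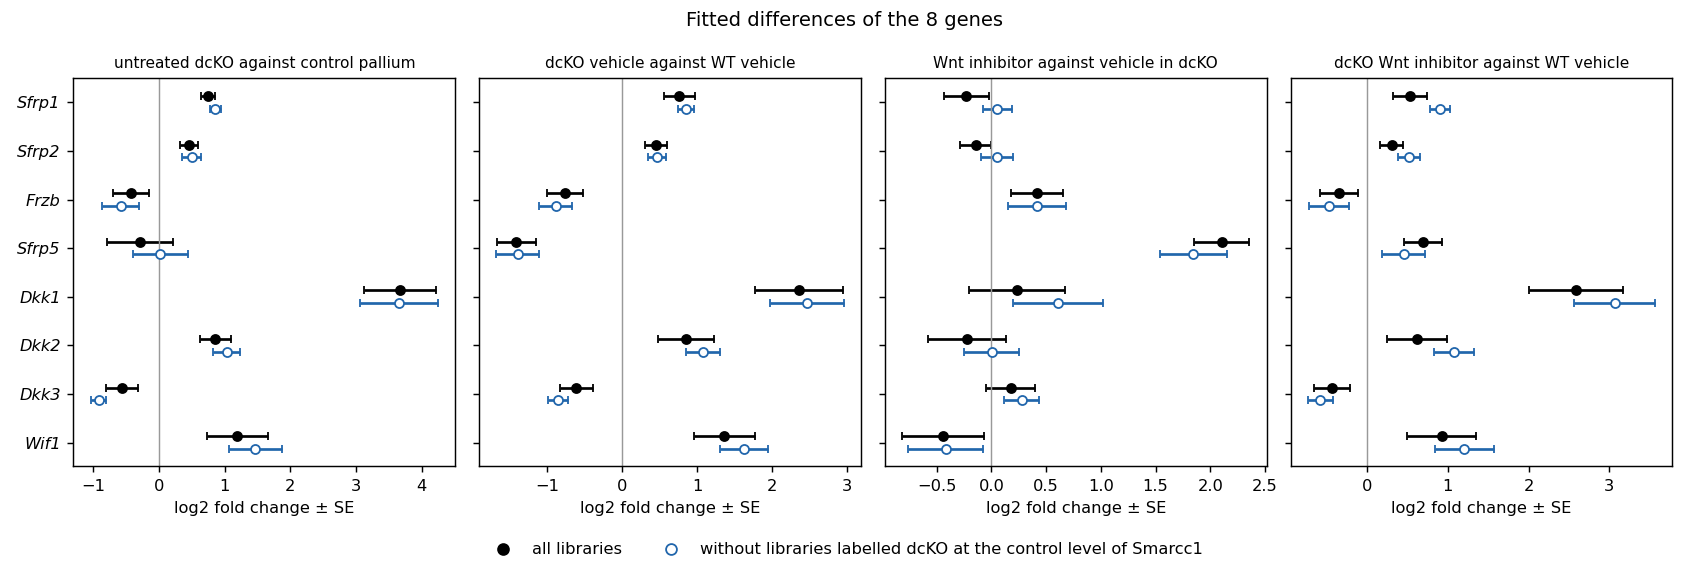
Log2 fold change (x axis) with its standard error for the 8 genes (y axis) in the 4 RNA-seq comparisons, 1 panel each. Filled points use all libraries and open points leave out the libraries labelled dcKO at the control level of Smarcc1. Sfrp5 lies at −1.41 in the vehicle genotype comparison and at 2.10 for inhibitor against vehicle, whereas Dkk1 is above 2 in the other 3 comparisons and at 0.24 for inhibitor against vehicle.

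The genes most like Sfrp5 over the 12 treated libraries, among 16372 genes, were Sec11c (Pearson r = 0.90), Foxp1 (0.89), Manf (0.88), Wdr86 (0.87) and Ccdc60 (0.87). Foxp1, a transcription factor of cortical and striatal neurons, was at 83.2 to 106 CPM in dcKO vehicle, 113 to 137 CPM in WT vehicle and 145 to 175 CPM with inhibitor. Sec11c encodes a signal peptidase subunit and Manf a secreted protein of the endoplasmic reticulum stress response. Those most like Dkk1 were Fzd5 (0.93), which encodes a Frizzled receptor, Ss18 (0.91), which encodes a BAF subunit, Vcam1 (0.91), Gm11772 (0.91) and Cdk2 (0.90). Fzd5 was at 2.10 to 2.40 CPM in WT vehicle, 3.52 to 8.07 CPM in dcKO vehicle and 3.77 to 7.68 CPM with inhibitor. Among the 8 antagonists, Dkk1 correlated with Sfrp1 (0.88) and Wif1 (0.79) and inversely with Dkk3 (−0.72), and Sfrp5 reached at most 0.49 in size, with Frzb. These values describe 12 libraries that share genotypes and treatments.

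Of 71 other genes of the Wnt pathway, 57 were tested in each comparison, and none passed the edgeR test with all libraries, beside 0.00634% and 0.00611% of all genes in the genotype comparisons (untreated and vehicle). The unadjusted p was under 0.05 for 18 (untreated) and 19 (vehicle) in the genotype comparisons, for 8 with inhibitor against vehicle and for 13 with inhibitor against WT vehicle, while DESeq2 called 7, 3, 3 and 3 (3.72%, 0.602%, 1.66% and 4.50% of all genes). Over all genes, 16%, 9.46%, 15.8% and 19.8% had an unadjusted p under 0.05. Without the libraries at the control level of Smarcc1, 13 rose and 4 fell in untreated dcKO against control pallium (12.4% of all genes passed), and 9 rose and 2 fell in dcKO vehicle against WT vehicle (5.82%). Of 17 receptors and co-receptors, 4 rose in the former and 3 in the latter, with Lrp4 at 1.43 ± 0.09 in both (edgeR adjusted p = 9.70e-06 and 9.35e-06) and Fzd5 at 1.36 ± 0.17 and 1.52 ± 0.16 (0.000688 and 0.000509). Of 10 ligands, 3 rose and 1 fell in untreated dcKO, with Wnt2b at 1.52 ± 0.15 (edgeR adjusted p = 0.000162) and Wnt5b at −1.36 ± 0.24 (0.00467). Of 11 feedback targets and TCF factors, 4 rose and 1 fell there, including Axin2, a direct target and inhibitor of the pathway, at 0.54 ± 0.10 (edgeR adjusted p = 0.00607). Of 6 R-spondins and their receptors, which amplify Wnt signals, Rspo2 rose by 1.11 ± 0.12 (0.000279 in edgeR) and Rspo3 fell. Of 13 other inhibitors of the pathway, Draxin rose and Rnf43 fell. With inhibitor against vehicle, 0 of 57 passed in edgeR also without these libraries, with 8 at an unadjusted p under 0.05. The median log2 fold change of the 57 genes with all libraries was 0.03, 0.03, −0.02 and 0.04 in the 4 comparisons, beside 0.004, −0.0031, 0.0108 and 0.0061 over all genes.

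H3K27me3 was read as the fold enrichment over input of broad peaks, merged over libraries into 22220 regions with a peak in at least 2 of 8 libraries. Libraries differed in depth after duplicate removal. Control replicates 1 and 3 and dcKO replicates 1 and 2 kept 12.3% to 18% of their tags, and the other 4 libraries kept 32.8% to 66.5%. All 8 antagonists had a region within 2000 bp of their start, as did 22.8% of 21938 protein-coding genes, and 4 of the 8 had a region with a peak in at least 7 libraries, as did 6.58% of these genes. Peaks at these genes were part of how they were chosen, so the counts are a description.

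By merged regions at the start, Dkk1, Dkk2, Sfrp5, Wif1 and Frzb, all with low mRNA, had a peak in 6 to 8 libraries. Within 2000 bp of the start Dkk1 had a peak in 8 libraries, Sfrp5 and Wif1 in 7, and Dkk2 and Frzb in 6. At Dkk1 (chr19:30545392-30554797) a peak was called in all 8 libraries, at 3.38, 4.93, 3.66 and 4.73 fold over input in control replicates 1 to 4 and at 3.72, 4.79, 5.06 and 7.47 fold in dcKO replicates 1 to 4. The merged region spans the whole gene, including both exons and introns, and the upstream sequence shown above. Among single libraries, only the peak of dcKO replicate 4 covered the whole gene. The peaks of control replicates 1 and 3 and of dcKO replicate 2 did not reach the upstream sequence. In dcKO replicate 2 the 4.79 fold came from a separate peak beyond 2000 bp of the start, and its peak near the start held 4.06 fold. At Dkk2 (chr3:132084040-132088172), which covers the gene start, all 8 libraries had a peak. The fold enrichment was 4.25, 4.28, 5.12 and 4.48 in controls and 7.48, 6.60, 5.03 and 7.61 in dcKO, and the groups overlapped. The values of dcKO replicates 1 and 2 and of control replicate 3 came from peaks beyond 2000 bp downstream of the start. Within 2000 bp of the start the controls held 4.25, 4.28, 3.34 and 4.48 fold, dcKO replicates 3 and 4 held 5.03 and 7.61 fold, and dcKO replicates 1 and 2 had no peak. At Sfrp5 the merged region (chr19:42197209-42204517) spans the gene and its upstream sequence, which among single libraries only the peak of dcKO replicate 4 did. Here 7 libraries had a peak, at 10.3, 5.11, 4.15 and 5.16 fold in controls and at 10.5, 5.49 and 8.72 fold in dcKO replicates 1, 3 and 4. Wif1 had a peak near its start in 7 libraries and Frzb in 6, with 3.31 to 9.94 fold at Frzb.

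Sfrp1, Dkk3 and Sfrp2, the antagonists with the highest mRNA, had a peak in 4 or 5 libraries by either count. At Sfrp1 (chr8:23409089-23411059), in a region ending upstream of the gene start, and at Dkk3 (chr7:112157763-112159438), the same 4 libraries had a peak, control replicates 2 and 4 and dcKO replicates 3 and 4. These are the 4 libraries that kept the most tags, at 3.86 to 4.99 fold for Sfrp1 and 3.57 to 5.19 fold for Dkk3. At Sfrp1, dcKO replicate 1 had a separate peak just downstream of the start. Sfrp2 (chr3:83765500-83768718) had a peak in 5 libraries, with the highest values of 11.8 fold in control replicate 1 and 9.91 fold in dcKO replicate 1. The part of depth in this pattern was not tested.

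**Figure D4:**
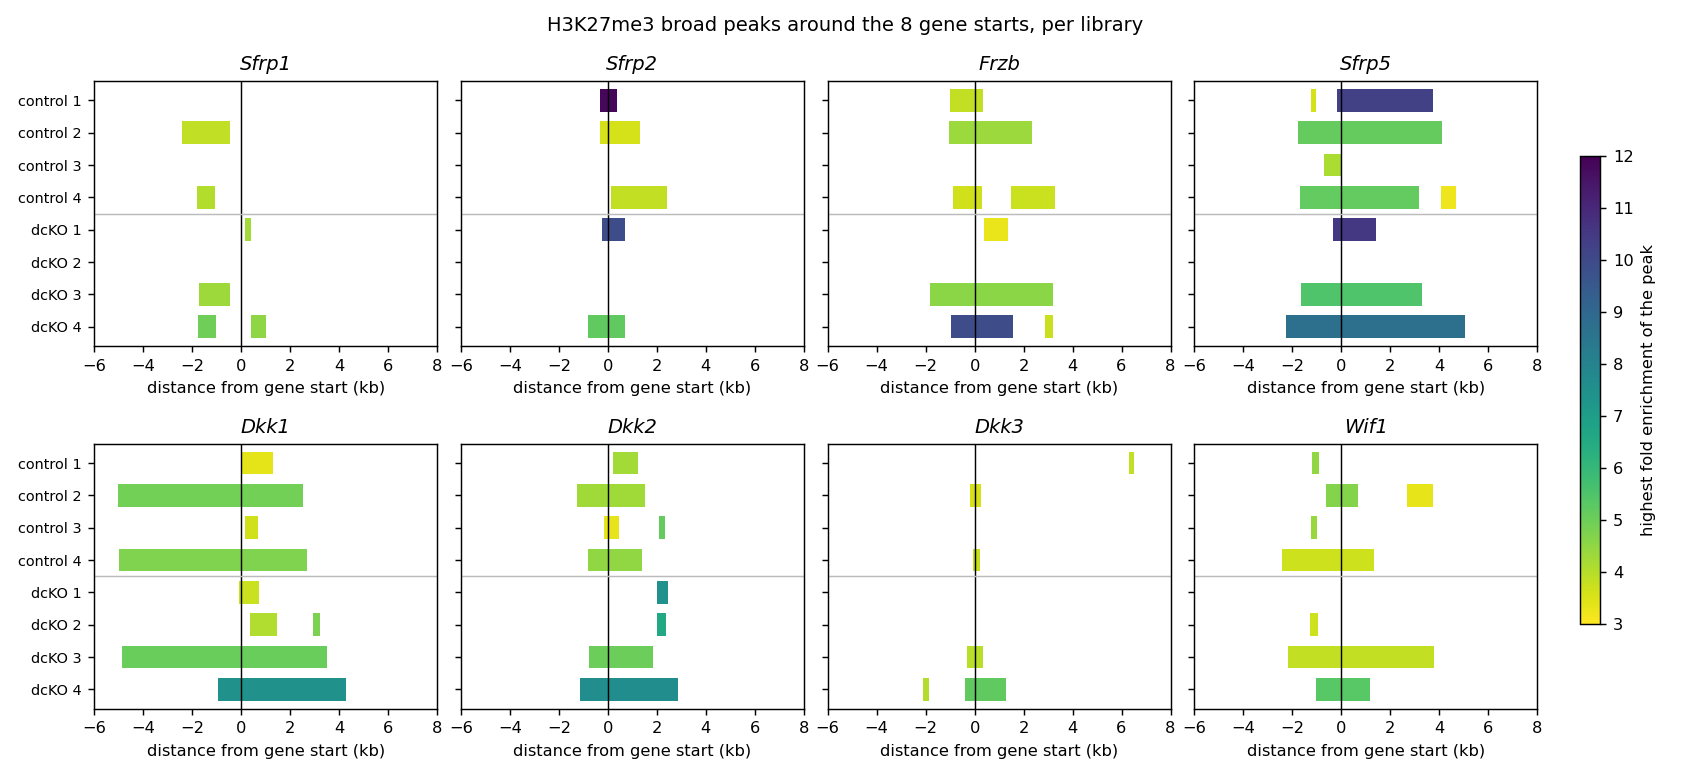
Broad H3K27me3 peaks of each library (rows) by distance from the gene start in kb (x axis, positive into the gene), 1 panel per gene. Color is the highest fold enrichment of the peak over input. Dkk1 has a peak in all 8 libraries, Sfrp1 and Dkk3 mainly in control replicates 2 and 4 and dcKO replicates 3 and 4.

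No H3K27me3 region of the antagonists passed the test between genotypes. Of 13 regions at their starts or in their bodies, 0 had an unadjusted p under 0.01 in limma and 0 had one under 0.05, beside 2 and 49 of all 22220 regions (0.00900% and 0.221%). These shares are far below the limits of 0.01 and 0.05 themselves, which are the fractions expected where nothing differs. The test could thus call almost no region, and no conclusion is drawn from the lack of calls at these genes. The estimates were imprecise. They were 0.31 ± 0.74 (SE) for Dkk1, 0.55 ± 0.68 for Dkk2, −0.29 ± 0.69 for Sfrp5, 0.32 ± 0.88 for Frzb, −0.55 ± 0.86 for Wif1, −0.41 ± 0.89 for Sfrp2, 0.12 ± 0.90 for Sfrp1 and 0.15 ± 0.89 for Dkk3, as log2 fold enrichment in dcKO minus control with n = 4 each. The smallest unadjusted p was 0.174, from limma, at a region in the body of Dkk2 that had a peak in control replicates 2 and 4 and in no dcKO library. These standard errors are moderated by limma toward a spread shared over regions, many with libraries set to 1 for lack of a peak. They exceeded the estimate at all 8 gene starts, but they are not the spread of the libraries at each gene. At Dkk1 and Dkk2, with a peak in all 8 libraries, the log2 SDs between libraries were smaller. They were 0.27 (control) and 0.42 (dcKO) at Dkk1, and 0.13 and 0.28 at Dkk2.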

How the data were processed

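RNA-seq and H3K27me3 ChIP-seq of E17.5 pallium and cortex were analysed from the deposited tables. The authors mapped RNA-seq reads to mm10 with STAR and deposited raw counts per Ensembl gene from featureCounts. For ChIP-seq the authors called broad peaks with MACS2 2.1.0.20140616 at a q-value limit of 0.1 against 1 pooled input per genotype. The deposited peak lists give fold enrichment over input, the pileup signal and the −log10 q-value.

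Gene-wise models in edgeR 4.0.16 (R 4.3.3) used TMM, filterByExpr and the robust quasi-likelihood test, with the 7 untreated libraries and the 12 treated libraries fitted separately, and genes were called at a Benjamini-Hochberg adjusted p under 0.05. Peaks overlapping by 1 bp were merged, and the log2 of the highest fold enrichment, with 1 where a library had no peak, was fitted with limma 3.58.1 and called at an unadjusted p under 0.01. Genes were placed with GENCODE M21 on GRCm38, and levels per kb use its exon length.

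The 8 genes and all lists were chosen with earlier results of these data known. Genes named beyond the 8 are Smarcc1 and Smarcc2, the 5 genes most correlated with Sfrp5 and with Dkk1, at most 4 called genes per pathway list, and markers that moved with a result. No pathway gene was called with all libraries, so the pathway genes named were taken from the fit without the libraries at the control level of Smarcc1 (Smarcc1 at 80% or more of the lowest control), after their values were seen. The edgeR test was also run on simulated data in which 200 genes differed by a log2 of 1. For untreated dcKO against control it recovered 165 of them out of 15587 genes, with 8 false calls. For inhibitor against vehicle it recovered 137 of 200 among 16208 genes, with 3 false calls. The real dcKO groups hold libraries with low and with control-level Smarcc1, and recovery under such a mixture was not tested. Meningeal markers summed to 63.2 to 88.5 CPM in dcKO vehicle and 75.4 to 163 CPM with inhibitor, and endothelial and pericyte markers to 287 to 317 and 305 to 321 CPM. Alternatives were other size factors, no filter, DESeq2 1.42.0 with shrunken fold changes, a replicate block, only the compared groups, each library left out and, for peaks, a stricter q-value, 3 libraries, an overlap of 100 bp, centring and the pileup. H3K4me2 was not analysed here.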

Additional observations from a re-analysis of the deposited data

Results flagged for a closer look

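In 58 groups of 4 libraries tested (32 of RNA-seq, 26 of H3K27me3), 5 had 1 library that stood apart from the other 3. Chance gives about 5% of groups where values have no floor, but H3K27me3 libraries without a peak were set to 1. A group with a peak in only 1 library is then always flagged, so this rate does not hold for the H3K27me3 groups. Dkk3 was at 53.3 CPM in the library labelled dcKO vehicle replicate 2, against 30.1 to 32.1 CPM in the other dcKO vehicle libraries, and this library has Smarcc1 at the control level. Sfrp2 was at 22.8 CPM in dcKO vehicle replicate 1, against 19.9 to 20.3 CPM in the others. The H3K27me3 region at the start of Sfrp5 reached 10.3 fold in control replicate 1, against 4.15 to 5.16 fold in the other controls. A region in the body of Dkk2 had a peak in control replicate 1 (4.72 fold) and dcKO replicate 1 (5.15 fold) and in no other library, so both of its groups were flagged through this floor.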

How the results depend on the processing

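The higher Sfrp5 level with inhibitor against vehicle kept its direction under every alternative and was called under all but 4, each of which left out 1 library. All these fits reuse the dcKO vehicle values that the choice of Sfrp5 used, so they are no independent test. Leaving out libraries 1 at a time gave 0 to 1 antagonists called in each inhibitor comparison. Against WT vehicle, 1 antagonist was called without the filter on low counts, 1 with DESeq2 and 5 without the libraries at the control level of Smarcc1.

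All genes called in untreated dcKO numbered 1, but 154 without the filter, 537 with DESeq2, 0 with the replicate block and 1994 without the libraries at the control level of Smarcc1 (0 to 1994 over libraries left out). In dcKO vehicle against WT vehicle 1 was called, but 0 with DESeq2 size factors, 0 without the filter, 0 with only the 2 groups in the fit, 5 with the block, 108 with DESeq2 and 978 without those libraries (0 to 562). With inhibitor against vehicle 9 were called, but 20 without the filter, 318 with DESeq2 and 172 without those libraries (0 to 420). Against WT vehicle 16 were called, but 58 without the filter, 8 with only the 2 groups, 189 with the block, 726 with DESeq2 and 1241 without those libraries (0 to 1453).

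Pathway genes called numbered 0 in each, but in untreated dcKO 4 without the filter, 7 with DESeq2 and 17 without those libraries (0 to 17). In the vehicle comparison they numbered 3 with DESeq2 and 11 without those libraries (0 to 6), with inhibitor against vehicle 3 with DESeq2 (0 to 1), and against WT vehicle 1 without the filter, 1 with the block, 3 with DESeq2 and 9 without those libraries (0 to 4). H3K27me3 regions called numbered 2, but 5 with a peak in at least 3 libraries, 11 with the block, 16 with the pileup and 1 at a q-value under 0.01 (0 to 19), and those of the antagonists 0 under every alternative.

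Reversed directions, none of them called, were Sfrp1 at 0.0535, Sfrp2 at 0.0492 and Dkk2 at 0.0015 with inhibitor against vehicle without those libraries, Dkk1 (−0.18 to 0.53) and Dkk3 (−0.0435 to 0.42) over libraries left out. Sfrp5 in untreated dcKO, at −0.29, turned to 0.0314 without control replicate 2 and to 0.0223 without dcKO replicate 2. For H3K27me3 they were, centred on the library median, the Dkk2 body region at −0.0217 and the Wif1 body region at −0.019, with the pileup −0.0066 and −0.0903, and Sfrp2 at 0.0475 at a q-value under 0.01. Over libraries left out the ranges were −0.29 to 0.49 (Sfrp1), −1.04 to 0.16 (Sfrp2), −0.67 to 0.46 (Sfrp5), −0.18 to 0.92 (Frzb), −1.25 to 0.68 (Dkk2, whose region splits in 2 without dcKO replicate 4), −0.16 to 0.23 (Dkk2 body), −0.27 to 0.52 (Dkk3) and −0.37 to 0.47 (Wif1 body). The causes were not tested.

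Whether replicate numbers pair the samples was not settled. Same-numbered libraries of different groups correlated at −0.31 to −0.03 in the untreated design and −0.18 to 0.40 in the treated one, and −0.32 to 0.58 in ChIP-seq. Their mean r was −0.137 in the untreated design, against 0.046 for other numbers. It was 0.098, 0.107 and 0.074 in the treated design, against −0.028, −0.036 and −0.021. In ChIP-seq it was 0.080 against −0.021. The block changed no call of an antagonist. With the shrunken fold changes of DESeq2, the genotype estimates of Dkk1 were 0.63 (untreated) and 0.64 (vehicle), and that of Sfrp5 in the vehicle comparison −0.80. Low counts of Sfrp5 and Dkk1 limit what can be read from single libraries.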
